A study of Mus musculus with 75 samples.

Results

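A set of 9 secreted regulators of Wnt and BMP signalling was followed across enteric glial preparations of mouse gut, namely the R-spondins Rspo1, Rspo2 and Rspo3, the Wnt ligands Wnt2b, Wnt4 and Wnt5a, the antagonists Grem1 and Sfrp1, and the ligand Bmp4. They were taken by gene symbol, and all 9 of the 9 symbols were present among the 21051 symbols shared by the deposited count tables. Bmp4 is a BMP ligand and not an antagonist, and Sfrp1 antagonizes Wnt rather than BMP, so the genes are grouped below by role. The RNA-seq series holds 75 libraries labelled as enteric glial cells (EGCs) of mice that carry a green fluorescent reporter transgene.

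In the first experiment adult untreated reporter mice gave myenteric plexus (MP, between the muscle layers) and submucosal plexus (SMP) preparations of colon (5 libraries each) and small intestine (SI, 6 each). In the second, reporter mice received 1 intraperitoneal dose of LPS, a bacterial endotoxin, at 2 mg/kg or PBS, and MP of colon and SI was taken 2 h later, with 4 libraries per group. In the third, MP was taken 24 h after the same treatments from Gpr37WT reporter mice (wild type, WT) and Gpr37-/- reporter mice (knockout, KO), which lack an orphan receptor of glia. The WT groups held 6 PBS and 4 LPS libraries of SI and 4 PBS and 5 LPS libraries of colon, and the KO groups 4 and 5 of SI and 5 and 4 of colon. All groups carry the reporter, and how the cells were collected is not given in the sources used here.

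R-spondins bind Lgr receptors and keep the ubiquitin ligases Rnf43 and Znrf3 from removing Frizzled receptors, so that cells respond more strongly to Wnt ligands. Gremlin 1, encoded by Grem1, binds BMP ligands and keeps them from their receptors, and Sfrp1 binds Wnt ligands outside the cell. In the gut these factors come mainly from mesenchymal cells, Wnt and R-spondin signals sustain the stem cells of the crypt base, and BMP signals promote differentiation towards the lumen.

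Sox10, a transcription factor of glia, was detected in 75 of 75 libraries, with 11.1 to 984 CPM (counts scaled to library size, with TMM factors, here and throughout), and S100b, a calcium-binding protein of glia, also in 75 of 75. Library totals ran from 2547296 to 9002546 counts in untreated mice, from 1990744 to 7883251 at 2 h and from 2882539 to 33283346 at 24 h. A count of 0 allows a level of up to 0.329 to 1.11, 0.359 to 1.46 and 0.0933 to 1.09 CPM in the libraries of the 3 experiments, which covers counting error only. Gpr37 reached at most 0.802 CPM in libraries labelled KO, but libraries labelled WT did not all exceed this. Of the 5 WT LPS colon libraries, 2 had no Gpr37 count and another (mouse 3) had 2 counts, and the SI library of mouse 3 had none. Markers of other cell types were found beside the glial ones in all 3 experiments, so in these bulk preparations fewer cells of a type and less RNA per cell cannot be told apart. The labels do not say whether libraries of a group came from separate animals in the first experiments, and p-values there measure the spread between libraries.

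Rspo1 passed the test in 6 comparisons below, more than any other of the 9, and Bmp4 in 4, all in untreated mice. Their RefSeq promoters, from 250 bases before the start site to 50 bases including and after it, are shown 5′ to 3′ on the gene's strand. The Rspo1 window is chr4:124986180-124986479 (plus strand) and the Bmp4 window chr14:46390620-46390919 (minus strand), both on GRCm38.p6.
Rspo1: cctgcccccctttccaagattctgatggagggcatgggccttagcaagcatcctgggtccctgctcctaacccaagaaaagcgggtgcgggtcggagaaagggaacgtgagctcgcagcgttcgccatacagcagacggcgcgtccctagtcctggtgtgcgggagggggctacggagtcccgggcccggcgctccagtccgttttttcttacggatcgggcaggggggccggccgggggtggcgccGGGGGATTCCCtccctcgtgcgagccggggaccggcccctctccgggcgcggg
Bmp4: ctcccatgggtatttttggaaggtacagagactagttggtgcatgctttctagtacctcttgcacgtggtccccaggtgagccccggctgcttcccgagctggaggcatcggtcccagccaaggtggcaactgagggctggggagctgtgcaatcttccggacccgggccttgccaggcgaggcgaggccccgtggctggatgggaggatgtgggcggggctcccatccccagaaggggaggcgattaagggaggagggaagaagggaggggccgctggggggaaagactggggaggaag
Capitals mark matches to the NF-kB consensus, a motif bound by a factor that LPS activates, which begin 3 bases before the Rspo1 start site, and the Bmp4 window holds none. They were picked out after a widening search of the 5 member promoters in the RefSeq table, those of Rspo1, Wnt2b, Wnt4, Grem1 and Bmp4. In all 15 motifs were searched on both strands. The first 4 were CTTTGAT and CTTTGAA for TCF/LEF, TGGGTGGTC for GLI and GCGGGGGCG for WT1, and none matched any of the 5 promoters. Only then were another 10 added. These were GCGTGGGAG for WT1, GGAATG for TEAD, GATAAG for GATA factors, CAGCTG for an E-box, TTTATG for CDX, and for NF-kB the core GGGATTCC with 4 fixed variants of its longer site. Of these 10, the core and 1 longer variant that contains it matched, both at the same place in Rspo1. The NF-kB consensus, by name, was added as the last motif after that match had been seen. Among 32851 promoters of the same length, 0.107% hold that longer variant, 1.06% hold the core and 8.46% hold the consensus. With 15 motifs and 5 promoters tried, such a match is a description of these letters only.

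On GRCm38 with the GENCODE vM21 annotation, Rspo1 spans chr4:124986430-125009099, Rspo2 chr15:43020794-43170826, Rspo3 chr10:29452416-29535867 and Grem1 chr2:113746164-113758646. Wnt2b lies at chr3:104945272-104961921, Wnt4 at chr4:137277489-137299726, Wnt5a at chr14:28504750-28527448, Bmp4 at chr14:46383520-46390669 and Sfrp1 at chr8:23411502-23449632. Exons of Rspo3, Wnt5a and Bmp4 overlap genes on the opposite strand (Gm48159 over 404 bases, Gm2670 over 233 and Gm15217 over 89). Whether counting used strand is not given in the sources used here, so reads of these pairs may be shared.

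Per kilobase of exon, Sfrp1 had the highest level of the 9 at every untreated site, from 62.0 ± 51.0 CPM per kb (SD, n = 6) in SI SMP to 216 ± 103 (n = 5) in colon MP. Bmp4 came next in colon MP (21.4 ± 13.3), colon SMP (52.1 ± 11.4) and SI SMP (11.6 ± 5.55), though its spread overlapped that of Rspo1 in colon MP (11.7 ± 17.7) and of Grem1 in SI SMP (9.19 ± 8.88). In SI MP, Grem1 (15.3 ± 9.43) and Rspo1 (15.0 ± 17.4) followed Sfrp1, and their spreads overlap. Wnt2b and Wnt4 stayed at or below 2.61 CPM per kb at all 4 sites.

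The regions of untreated mice were compared within each plexus. In MP, edgeR's quasi-likelihood test called 2 of the 9 genes at a Benjamini-Hochberg adjusted p under 0.05, against 3.19% of all genes tested. In SMP it called 3 of 9, against 5.18%. The median log2 fold change of the 9 (colon over SI) was -0.10 in MP and 0.59 in SMP, beside 0.01 and -0.05 over all genes. Because the genes were chosen with results of these data known, these counts describe the genes and test nothing about them as a set.

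Rspo2 had no count in any of the 5 colon MP libraries or the 5 colon SMP libraries. In SI MP its level ran from 0.303 to 29.1 CPM (median 6.06), and in SI SMP from 0.132 to 8.26 CPM (median 1.79). Every SI library thus held Rspo2 reads, although the lowest were within the level that a count of 0 allows. Against the level of 3 counts per library, colon was at least 14.8-fold lower in MP (adjusted p = 0.0181, edgeR) and at least 5.09-fold lower in SMP (adjusted p = 0.0251). With a replicate block (the sex and number shared in library names) the MP call was lost (adjusted p = 0.0794). The MP bound rests on the SI mean, which includes the library at 29.1 CPM, with the other 5 at 0.303 to 9.41 CPM. The SMP bound likewise includes the SI library at 8.26 CPM, and the SMP call was lost without colon replicate 2 (adjusted p = 0.0589) or 6 (adjusted p = 0.0567).

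Bmp4 was higher in colon. In colon MP the libraries held 24.8, 22.4, 80.0, 32.1 and 81.4 CPM, and in SI MP 9.42 to 19.0 CPM (median 13.7). In colon SMP they held 82.9, 113, 123, 154 and 113 CPM, and in SI SMP 10.8 to 38.9 (median 30.1). No colon library overlapped SI in either plexus. Bmp4 was 3.47-fold higher in colon MP (log2 fold change 1.79, SE 0.38, adjusted p = 0.0131, edgeR) and 4.49-fold higher in colon SMP (2.17, SE 0.38, adjusted p = 0.00157).

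Wnt5a, a Wnt ligand best known for signalling without beta-catenin, was higher in colon SMP. Its levels there were 13.3, 24.3, 22.4, 21.5 and 37.8 CPM, and in SI SMP 1.36 to 8.04 CPM (median 2.10), without overlap. The difference was 6.76-fold (log2 2.76, SE 0.45, adjusted p = 0.000964, edgeR). In MP the regions overlapped for Wnt5a, with 18.5 to 83.3 CPM in colon and 21.4 to 64.3 CPM in SI (log2 0.52, SE 0.42, adjusted p = 0.612).

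Grem1 went the other way in MP without passing the test. Colon MP held 30.4, 33.8, 19.6, 14.9 and 0.525 CPM and SI MP 38.4 to 141 CPM (median 47.8), so the groups did not overlap (log2 -1.68, SE 0.63, adjusted p = 0.161, edgeR). Rspo1, Rspo3, Wnt2b and Sfrp1 overlapped between regions in both plexuses. Wnt4 was at 0 in all 6 SI MP libraries and at 1.74, 3.02, 0, 0 and 0 CPM in colon MP (adjusted p = 0.0828, edgeR, and 0.0375 by DESeq2).

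Markers of other cells differed between the regions as well. In MP, 7 of 8 neuronal markers were lower in colon, while 4 of 8 fibroblast markers and 3 of 6 smooth muscle markers were higher. The glial marker Fabp7 was 2.45-fold lower and Kit, of interstitial cells of Cajal, 9.37-fold higher. In SMP, 2 of 8 fibroblast and 2 of 4 endothelial markers were higher in colon, as were 2 of 8 glial markers, Entpd2 (4.88-fold) and Gfap (3.77-fold), and 1 of 8 neuronal markers, Elavl4, was lower. Their part in the Bmp4, Rspo2 and Wnt5a differences was not tested.

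**Figure D1:**
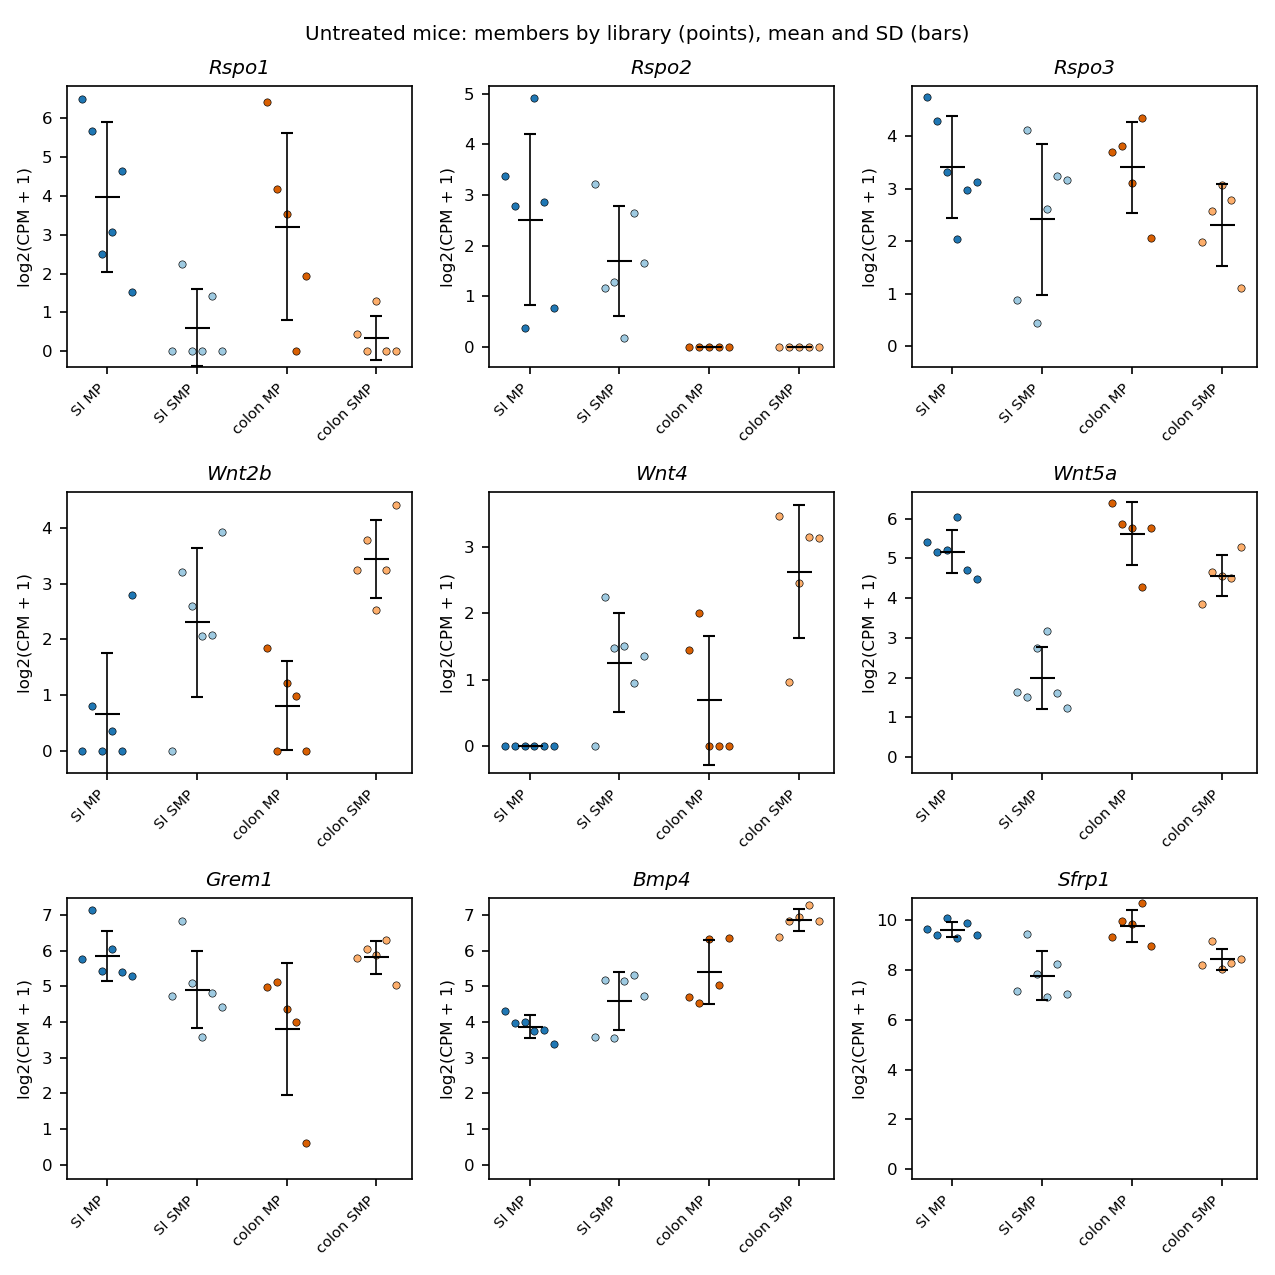
Levels of the 9 genes in untreated mice as log2(CPM + 1), 1 panel per gene, with a point per library and bars for mean and SD at the 4 sites. Rspo2 sits at 0 in all colon libraries, Bmp4 is highest in colon SMP, and Rspo1 is near 0 in SMP of both regions.

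The plexuses of untreated mice were compared within each region. Here a large part of all genes differed: edgeR called 3 of the 9 in colon, against 21.8% of all genes, and 5 of 9 in SI, against 43.5%. Rspo1 and Sfrp1 were lower and Bmp4 higher in SMP of both regions. In SI, Wnt5a was also lower and Wnt4 higher in SMP. In colon their estimates had the same signs without passing (Wnt5a log2 -1.15, SE 0.45, adjusted p = 0.0686, and Wnt4 2.75, SE 1.29, adjusted p = 0.138, edgeR), and Wnt5a passed in 2 of 10 runs that left out 1 library.

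Rspo1 was at 82.9, 16.9, 10.5, 0 and 2.80 CPM in colon MP and at 0.370, 0, 1.45, 0 and 0 CPM in colon SMP. In SI it ran from 1.85 to 87.6 CPM (median 15.6) in MP and from 0 to 3.74 CPM (median 0) in SMP. Most MP libraries lay above all SMP libraries, but 1 library in each region overlapped. Rspo1 was 56.6-fold lower in colon SMP (log2 -5.82, SE 1.64, adjusted p = 0.0151, edgeR) and 29.7-fold lower in SI SMP (log2 -4.89, SE 1.39, adjusted p = 0.00684). The colon call was lost with sex as a covariate (adjusted p = 0.0564). Leaving out 1 library at a time moved the colon log2 fold change from -8.26 (without SMP replicate 4) to -4.24 (without MP replicate 1, the library at 82.9 CPM, where the call was lost at an adjusted p of 0.0597). In SI it moved from -6.27 (without SMP replicate 2) to -4.15 (without MP replicate 1), and the call held in each run.

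Sfrp1 was at 643, 991, 922, 1665 and 505 CPM in colon MP and at 297, 573, 263, 308 and 344 CPM in colon SMP. In SI its level was 628 to 1079 CPM (median 744) in MP and 120 to 703 CPM (median 184) in SMP. The groups overlapped by 1 SMP library in each region. It was 2.65-fold lower in colon SMP (log2 -1.40, SE 0.42, adjusted p = 0.0202, edgeR) and 2.97-fold lower in SI SMP (log2 -1.57, SE 0.38, adjusted p = 0.00229). The colon call was lost without MP replicate 4 (adjusted p = 0.0717) or SMP replicate 4 (adjusted p = 0.0539).

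Bmp4 was 2.43-fold higher in colon SMP than in colon MP (log2 1.28, SE 0.39, adjusted p = 0.0229, edgeR), without overlap, and the call was lost in 4 of 10 runs that left out 1 library (adjusted p up to 0.0605). In SI it was 1.88-fold higher in SMP (log2 0.91, SE 0.36, adjusted p = 0.0455), with overlap, and this call was lost under 4 of 6 other settings. Wnt5a was 10.5-fold lower in SI SMP than in SI MP (log2 -3.39, SE 0.45), without overlap. Wnt4 had no count in all 6 SI MP libraries and reached 0 to 3.74 CPM (median 1.68) in SI SMP, at least 2.75-fold higher (adjusted p = 0.00459).

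Wnt2b, a ligand of crypt mesenchyme, had 8.51, 12.7, 4.77, 8.54 and 20.2 CPM in colon SMP and 2.61, 0, 1.31, 0.982 and 0 CPM in colon MP. The groups did not overlap, but the test was not passed (log2 3.43, SE 1.34, adjusted p = 0.0704, edgeR). It passed with DESeq2 (adjusted p = 0.0256) and when the 2 groups were fitted alone (adjusted p = 0.0323). Grem1 in colon was 32.1 to 77.9 CPM in SMP and 0.525 to 33.8 CPM in MP (log2 1.54, SE 0.65, adjusted p = 0.094). That difference passed with DESeq2 (adjusted p = 0.0437), with sex as a covariate (adjusted p = 0.0237) and with the replicate block (adjusted p = 0.0102). In SI its point estimate had the opposite sign (log2 -0.73, SE 0.58).

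Whether the plexus difference itself differed between regions was tested by the interaction. edgeR called 0 of 9 genes, against 1.19% of all genes. At an unadjusted p under 0.05 there were 2, Wnt5a (log2 2.24, SE 0.62, adjusted p = 0.0787) and Grem1 (2.27, SE 0.87, adjusted p = 0.202), and DESeq2 called 1, Wnt5a. In edgeR, Wnt5a passed without SI SMP replicate 4 (adjusted p = 0.0291) and Grem1 with the replicate block (log2 3.08, adjusted p = 0.0451).

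Of the pathway around these genes, the secreted Wnt inhibitors differed between plexuses in both directions. In SI, 7 of 9 tested inhibitors were lower in SMP and 2 higher, and in colon 5 were lower and 1 higher. Notum, an enzyme that removes the lipid of Wnt ligands, was lower in both regions (colon log2 -4.37, SE 1.53, and SI -4.51, SE 1.64), and Wif1, another Wnt-binding inhibitor, was higher in both. Dkk2, an inhibitor that binds Wnt co-receptors, went opposite ways, lower in colon SMP (log2 -3.74, SE 1.04) and higher in SI SMP (2.63, SE 0.91), and its interaction passed (log2 -6.37, adjusted p = 0.0229, edgeR). Lgr5, an R-spondin receptor, was higher in SMP in both regions, at 6.72 against 0.0981 CPM in colon and 14.3 against 0.766 CPM in SI. Lgr6, another R-spondin receptor, was lower in both. Of 9 BMP targets tested, Id1, Id2 and Id3 were higher in colon SMP and none was lower, and in SI Id2 was higher and Id4 lower. The shares of all genes called, 21.8% in colon and 43.5% in SI, stand beside each of these counts, so those of the BMP targets are no result about that list.

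The plexus preparations also differed in their cell markers. All 5 mesothelial markers were lower in SMP in both regions, and Msln was at 0 in every SMP library. The summed mesothelial level was 0.327 to 957 CPM in colon MP and 0 to 4.37 CPM in colon SMP, and 14.8 to 508 CPM in SI MP and 0.584 to 6.56 CPM in SI SMP. Glial markers were lower in SMP (4 of 8 in colon and 8 of 8 in SI), as were all 6 smooth muscle markers, while all 6 immune markers were higher. The share of counts from mitochondrial genes was 11.6 to 18.8% in SI MP and 2.84 to 9.43% in SI SMP, without overlap, and 5.35 to 16.5% and 4.02 to 7.18% in colon. In SI all 5 epithelial markers were higher in SMP too. In colon the summed epithelial level was 1351 to 5046 CPM (median 2550) in SMP and 4.27 to 1835 CPM (median 61.0) in MP. Neuronal markers were lower in SMP (5 of 8 in colon and 8 of 8 in SI), as were those of interstitial cells of Cajal, the pacemaker cells of gut muscle (3 of 3 and 2 of 3), and all 4 endothelial markers in SI. Of the 8 fibroblast markers 1 was lower in colon SMP and 1 higher in SI SMP. The part of these markers and of the mitochondrial share in the plexus differences was not tested.

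The region comparison was repeated in PBS-treated MP. At 2 h, edgeR called 0 of the 7 genes that passed the filter on low counts (Wnt2b and Wnt4 did not), against 0.221% of all genes. At an unadjusted p under 0.05 there were 2, Rspo1 and Grem1, and DESeq2 called 1, Rspo1. At 24 h edgeR called 1 of 9 in WT, Rspo1, against 0.141% of all genes, and 0 of 9 in KO, against 0.0805%. In KO 3 had an unadjusted p under 0.05, and DESeq2 called 1, again Rspo1.

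Rspo1 at 2 h after PBS was 66.5, 31.2, 38.9 and 72.1 CPM in SI and 0, 0, 11.0 and 0 CPM in colon, without overlap (log2 -4.27, SE 1.49, adjusted p = 0.242, edgeR). At 24 h in WT it was 50.4 to 235 CPM (median 124) in SI and 7.27, 11.7, 9.83 and 1.16 CPM in colon, again without overlap. The WT difference was 17.2-fold (log2 -4.10, SE 0.80, adjusted p = 0.0221). Colon and SI libraries of 1 mouse share that animal, and with mouse as a block the call was lost (log2 -4.21, adjusted p = 0.259). It was also lost without any single WT colon library or without SI replicate 1 (adjusted p up to 0.119). In KO, SI held 196, 257, 118 and 3.84 CPM and colon 13.8, 16.9, 15.5, 1.78 and 14.2 CPM (log2 -3.53, SE 0.74, adjusted p = 0.0523). Without the SI library at 3.84 CPM the KO difference passed (adjusted p = 0.00315). That library also had a summed level of 24.2 CPM for the 5 mesothelial markers described below, against 1356 to 3010 CPM in the other 3. The untreated set did not show this difference for Rspo1 (log2 -0.37, SE 1.21), and the sets were not tested against each other. The summed mesothelial level beside these values was 334 to 852 CPM in SI and 0 to 104 CPM in colon at 2 h after PBS, and 567 to 2766 and 13.8 to 89.7 CPM at 24 h in WT. In that WT set Msln was 36.3-fold, Upk3b 38.4-fold and Lrrn4 39.5-fold lower in colon without overlap, none of them past the test (lowest adjusted p of the 3, for Lrrn4, 0.203, edgeR). Their part in the Rspo1 difference was not tested.

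Grem1 was lower in colon MP in each of the 4 sets without passing the edgeR test, with log2 fold changes of -1.68 (untreated), -1.95 (2 h), -2.94 (24 h WT) and -2.28 (24 h KO). At 24 h in WT it was 11.0, 9.30, 4.60 and 6.46 CPM in colon against 28.7 to 88.9 CPM (median 61.9) in SI, without overlap (adjusted p = 0.401). That difference passed when the 2 groups were fitted alone (log2 -2.95, adjusted p = 0.00242) and in mice numbered 11 and above (log2 -2.76, adjusted p = 0.00922). Rspo2 was 0 in 3 of 4 colon libraries at 2 h after PBS, but 23.1 CPM in the other, so its absence from untreated colon did not extend to all sets. At 24 h Rspo2 in WT colon was 2.54, 2.38, 1.16 and 0 CPM against 5.29 to 25.9 CPM (median 8.71) in SI (log2 -2.92, SE 1.55, adjusted p = 0.816). Bmp4 kept a positive point estimate in all 3 PBS sets (0.81, 0.79 and 1.20), none of which passed. Beside these differences, the summed neuronal markers in colon were 154 to 711 against 1271 to 4066 CPM in SI at 2 h and 498 to 1145 against 1348 to 2486 CPM at 24 h in WT, without overlap. In KO they overlapped, at 176 to 1240 against 332 to 1264 CPM. The sums of other lists also separated the regions without overlap, smooth muscle at 2 h (19382 to 72124 in colon against 2337 to 15329 CPM) and fibroblasts at 24 h in WT (16580 to 25993 against 1967 to 13525 CPM). Stmn2, a neuronal marker, was called at 2 h (5.16-fold lower in colon, adjusted p = 0.0284). The r of Grem1 with the summed neuronal markers was 0.22, 0.74 and 0.43 in the untreated, 2 h and 24 h libraries. With the summed mesothelial markers it was 0.09, 0.52 and 0.61, and with the epithelial ones -0.03, 0.42 and 0.44. That of Bmp4 with the summed fibroblast markers was 0.74, 0.35 and 0.66. The part of these markers was not tested.

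**Figure D2:**
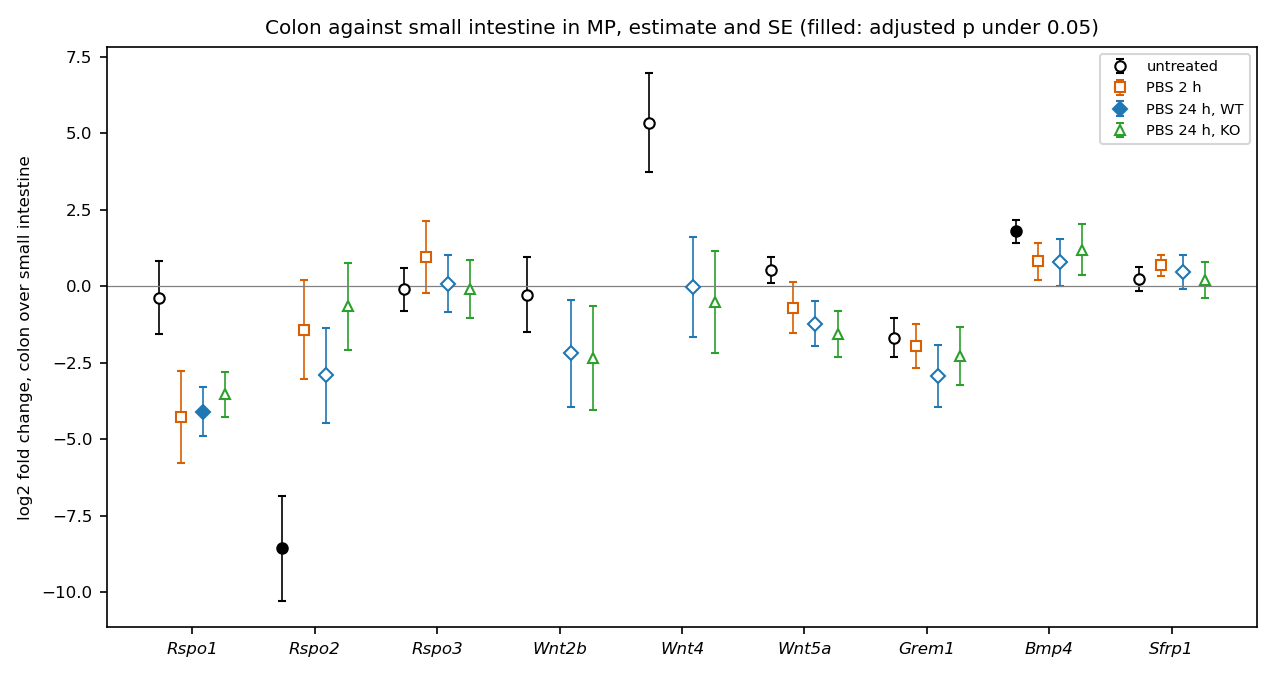
Log2 fold change of colon over SI in MP for each gene in 4 sets of libraries, with bars for SE and filled symbols for an adjusted p under 0.05. Rspo2 and Bmp4 in untreated mice and Rspo1 at 24 h in WT are filled, and Grem1 lies below 0 in all 4 sets.

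At 2 h after LPS, edgeR called 0 of the 7 tested genes in SI (1.1% of all genes) and 0 in colon (0.778%). None had an unadjusted p under 0.05, DESeq2 called none, and the same holds for the interaction of LPS and region (0% of all genes). Rspo1 in SI was 12.7, 58.3, 19.4 and 26.2 CPM after LPS, and 3 of these 4 lay below all PBS libraries (log2 -0.84, SE 1.29). In colon its estimate had the opposite sign (log2 0.95, SE 1.36), with 0, 12.4, 2.05 and 6.10 CPM after LPS. Wnt5a in colon was 22.7, 1.20, 26.7 and 1.94 CPM after LPS and 37.8, 33.3, 18.01 and 37.5 CPM after PBS (log2 -1.28, SE 0.86, adjusted p = 0.922). Rspo2 in colon was 23.9, 0.200, 6.98 and 26.9 CPM after LPS, beside 23.1 CPM in 1 PBS library and 0 in the other 3 (log2 1.31). In SI the log2 estimates were 1.00 for Rspo2 and 0.10 for Wnt5a. Those of the other 4 in SI were 1.35 for Rspo3, 0.40 for Grem1, -0.04 for Bmp4 and 0.24 for Sfrp1. In colon they were -0.62 for Rspo3, 0.31 for Grem1, -0.52 for Bmp4 and -0.06 for Sfrp1. Of the 9 BMP targets tested Id3 was higher with LPS in both regions, at 812 against 117 CPM in SI (log2 2.79, SE 0.32) and 691 against 145 CPM in colon (2.25, SE 0.31), and no other gene of the 9 pathway lists was called.

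At 24 h after LPS, Rspo1 was lower in WT mice in both regions and was the 1 gene of 9 called in each, against 7.17% of all genes in SI and 7.96% in colon. In SI it was 11.3, 4.65, 12.4 and 16.3 CPM after LPS against 50.4 to 235 CPM after PBS, without overlap. That is 11.6-fold lower (log2 -3.54, SE 0.78, adjusted p = 0.00452, edgeR). In colon Rspo1 had 0 counts in all 5 LPS libraries and 7.27, 11.7, 9.83 and 1.16 CPM in the 4 PBS libraries. A count of 0 allows 0.360 to 1.09 CPM in these LPS libraries, so the level was at least 10.8-fold lower (adjusted p = 0.000301, edgeR). With the compared colon groups fitted alone, Rspo1 did not pass the filter on low counts and was not tested.

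The other 8 did not pass in WT by the main test. Wnt5a had negative estimates in SI (log2 -1.76, SE 0.75, adjusted p = 0.162, edgeR) and colon (-1.56, SE 0.74, adjusted p = 0.186). In SI it passed when the 2 groups were fitted alone (adjusted p = 0.0329) and in mice numbered 11 and above (adjusted p = 0.0477). In colon it was 2.18, 16.1, 43.9, 0 and 6.75 CPM after LPS and 34.0, 48.4, 51.5 and 29.6 CPM after PBS. The library at 43.9 CPM is that of mouse 3. Without both libraries of mouse 3 Wnt5a passed in colon (log2 -2.63, adjusted p = 0.0378, edgeR). It also passed there in mice numbered 11 and above (log2 -2.04, adjusted p = 0.0349). In that setting the WT LPS libraries of each region were those of mice 13 and 16 alone, while every WT PBS colon library was kept. Wnt2b in SI was 0, 0, 0 and 0.370 CPM after LPS against 1.07 to 9.50 CPM (median 2.90) after PBS, without overlap (log2 -5.25, SE 2.17, adjusted p = 0.142). It passed with DESeq2 (adjusted p = 0.0446) and when the 2 groups were fitted alone (adjusted p = 0.026). Bmp4 in LPS colon spread from 0 to 142 CPM (22.6, 142, 0, 3.87 and 89.1), against 110 to 167 CPM after PBS (adjusted p = 0.312). The estimates for the others in SI and colon were log2 -0.92 and -2.14 for Rspo2, 1.21 and -0.83 for Rspo3, and 2.27 and 1.98 for Wnt4. For Grem1 they were -0.24 and 0.52, and for Sfrp1 -1.13 and -0.89.

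In KO mice edgeR called 0 of 9 with LPS in SI (0.718% of all genes) and 0 in colon (0.718%). In SI 3 had an unadjusted p under 0.05 and DESeq2 called 2, Sfrp1 and Wnt5a. In colon neither gave any. Rspo1 in KO SI was 25.8, 25.4, 58.3, 28.6 and 34.8 CPM after LPS (log2 -2.06, SE 0.70, adjusted p = 0.187), and 3 of the 4 PBS libraries lay above all of these. In KO colon it was 4.83, 10.3, 5.36 and 4.34 CPM after LPS, overlapping the PBS libraries (mean 6.21 ± 2.76, SD, n = 4, against 12.4 ± 6.09, n = 5; adjusted p = 0.616, edgeR).

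The genotypes were compared directly. After PBS edgeR called 0 of 9 in SI (0% of all genes) and 0 in colon (0%), with none at an unadjusted p under 0.05 and none by DESeq2. After LPS it called 0 in SI (0.0134%), where Rspo1 alone had an unadjusted p under 0.05 and DESeq2 called none. In LPS colon it called 1, Rspo1, against 0.429% of all genes. Rspo1 was present in all 4 KO LPS colon libraries and at 0 in all 5 labelled WT, at least 8.94-fold higher in KO (adjusted p = 0.00661). This call was lost when the 2 groups were fitted alone (adjusted p = 0.763). The interaction of genotype and LPS for Rspo1 in colon did not pass in edgeR (log2 8.12, SE 1.79, adjusted p = 0.12), while DESeq2 gave an adjusted p of 0.000327. So the LPS difference is not shown by the main test to depend on genotype. The fitted log2 of 8.12 is no bound, since WT LPS colon had no Rspo1 count. In SI the interaction was far from the threshold (log2 1.48, SE 0.98, adjusted p = 1). edgeR called 0 of 9 in either interaction (0% of all genes in each), with Rspo1 in colon the 1 gene at an unadjusted p under 0.05, and DESeq2 called no other. Of the 5 WT LPS colon libraries, 3 had 2 or fewer Gpr37 counts. Without both libraries of mouse 3 the Rspo1 genotype call held (adjusted p = 0.0248). Beside this call, the summed fibroblast markers in LPS colon were 1735 to 17546 CPM (median 16131) in KO and 760 to 9606 CPM (median 3224) in WT. The summed mesothelial markers were 3.06 to 143 CPM (median 51.9) in KO and 9.50 to 57.8 CPM (median 16.4) in WT, and Msln was 6.33-fold higher in KO without passing (adjusted p = 0.288, edgeR). Their part in the genotype difference was not tested.

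**Figure D3:**
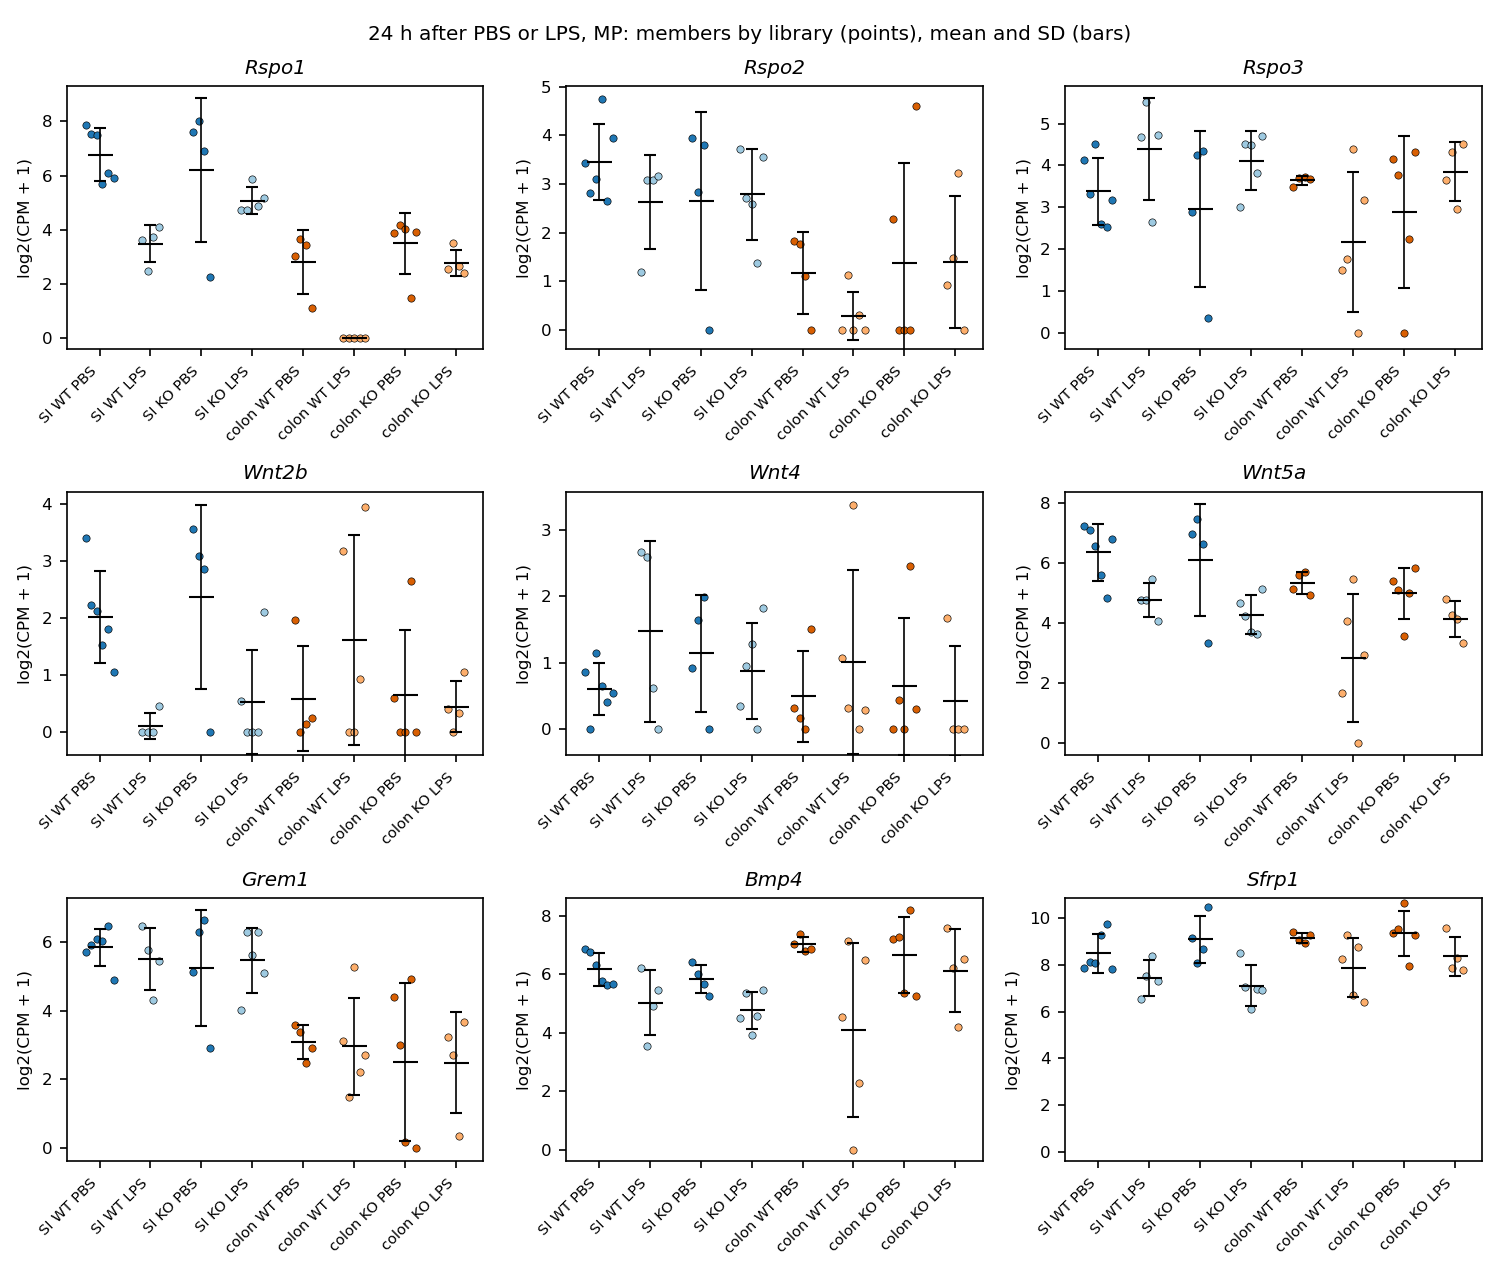
Levels of the 9 genes 24 h after PBS or LPS in MP as log2(CPM + 1), with a point per library and bars for mean and SD in the 8 groups of region, genotype and treatment. All 5 WT LPS colon libraries sit at 0 for Rspo1, and Rspo1 in SI is lower after LPS than after PBS in WT without overlap.

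Among the pathway lists at 24 h, Wls, the carrier that brings Wnt ligands to the cell surface, was lower with LPS in WT in SI (146 to 59.1 CPM, log2 -1.31, SE 0.36) and in colon (140 to 39.7 CPM, -1.82, SE 0.37). The counts that follow stand beside 7.17% of all genes called in WT SI and 7.96% in WT colon. In colon 3 of 10 BMP antagonists, Nbl1, Twsg1 and Fstl1, were lower and none higher. In SI 2 of 9 secreted Wnt inhibitors, Notum and Sfrp2, were lower and Dkk3 higher. In colon Sostdc1, an inhibitor of Wnt and BMP signals, was higher after LPS (3570 against 265 CPM, 13.5-fold, adjusted p = 0.0119, edgeR), with overlap. Of other pathway genes, Lgr6 (log2 -7.15) and the BMP ligand Gdf10 (-6.02) were lower in SI. In colon the ligand Wnt2 (log2 -8.15) and the receptor Fzd2 (-3.20) were lower, and Smad4 (1.24), a mediator of BMP signals, was higher. Lgr6 in SI and Wnt2 in colon had no count after LPS, so their fitted values are no bounds, and the levels were at least 3.95-fold and 5.46-fold lower. No gene of the pathway lists was called with LPS in KO. Collagen genes moved with these results: Col1a1, Col1a2 and Col3a1 of the 8 fibroblast markers were lower with LPS in WT in both regions. The summed fibroblast level was 760 to 9606 CPM in WT LPS colon and 16580 to 25993 CPM in WT PBS colon. That of interstitial cells of Cajal was 24.5 to 150 CPM and 151 to 457 CPM in the same groups. Pi16, another fibroblast marker, was lower in colon. Glial markers changed as well: with LPS in WT SI Gfap was 6.00-fold higher and Fabp7 14.3-fold lower, and in WT colon Fabp7 was 6.36-fold and Entpd2 2.79-fold lower. Of the 6 immune markers Itgam was higher in WT colon (21.9-fold, adjusted p = 0.04999, edgeR). The part of these markers in the differences was not tested.

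Rspo1 followed mesothelial genes across libraries. Mesothelium is the cell layer that covers the outer surface of the gut. Of 9536 genes compared, the 3 most like Rspo1 by mean Pearson r over the 3 experiments (22, 16 and 37 libraries) were Msln (0.89), Upk3b (0.87) and Lrrn4 (0.87). These are all genes of the mesothelial marker list. The r of Rspo1 with the summed level of the 5 markers, on the log2(CPM + 1) scale, was 0.93, 0.95 and 0.89 in the 3 experiments. At 24 h it was 0.73 for Rspo2, 0.61 for Grem1, 0.60 for Wnt5a and 0.39 for Rspo3. For Wnt2b, Wnt4, Bmp4 and Sfrp1 it was 0.22, 0.03, -0.09 and -0.24. In the untreated and 2 h libraries it was 0.26 and 0.24 for Rspo2, 0.09 and 0.52 for Grem1, and 0.66 and 0.15 for Wnt5a. These are descriptions, and the libraries share groups and depth. For the other genes the closest were Tm4sf4 for Rspo2 (0.68), Tmtc1 for Rspo3 (0.59), Dclk1 for Wnt5a (0.71), Ywhaz for Grem1 (0.58), Mmp23 for Bmp4 (0.77) and Ank3 for Sfrp1 (0.86). Sfrp1 had an r of 0.88, 0.62 and 0.85 with the summed glial markers.

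Beside the LPS result at 24 h, the summed mesothelial level in WT SI was 173 to 419 CPM after LPS and 567 to 2766 CPM after PBS. In WT colon it was 9.50 to 57.8 CPM (median 16.4) after LPS and 13.8 to 89.7 CPM (median 51.4) after PBS. None of the 5 mesothelial markers was called with LPS in either region or genotype, and Lrrn4 in WT SI came nearest (log2 -3.87, SE 1.31, adjusted p = 0.065, edgeR). As a ratio computed after these values were seen, Rspo1 per 100 CPM of mesothelial markers in WT SI had a median of 8.91 after PBS (6.81 to 11.6) and 3.88 after LPS (2.69 to 7.46). In WT colon it was 8.39 to 46.4 after PBS and 0 in all 5 LPS libraries. A count of 0 allows 0.360 to 1.09 CPM of Rspo1 in these, beside the low mesothelial sums given above, so their ratios may lie above 0. In KO SI the median ratio was 8.60 after PBS and 5.85 after LPS. In KO colon it was 11.6 to 96.3 after PBS and 6.45 to 158 (median 14.1) after LPS. The 96.3 and the 158 are those of libraries with mesothelial sums of 1.84 and 3.06 CPM. The part of mesothelial RNA in the Rspo1 results was not tested.

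**Figure D4:**
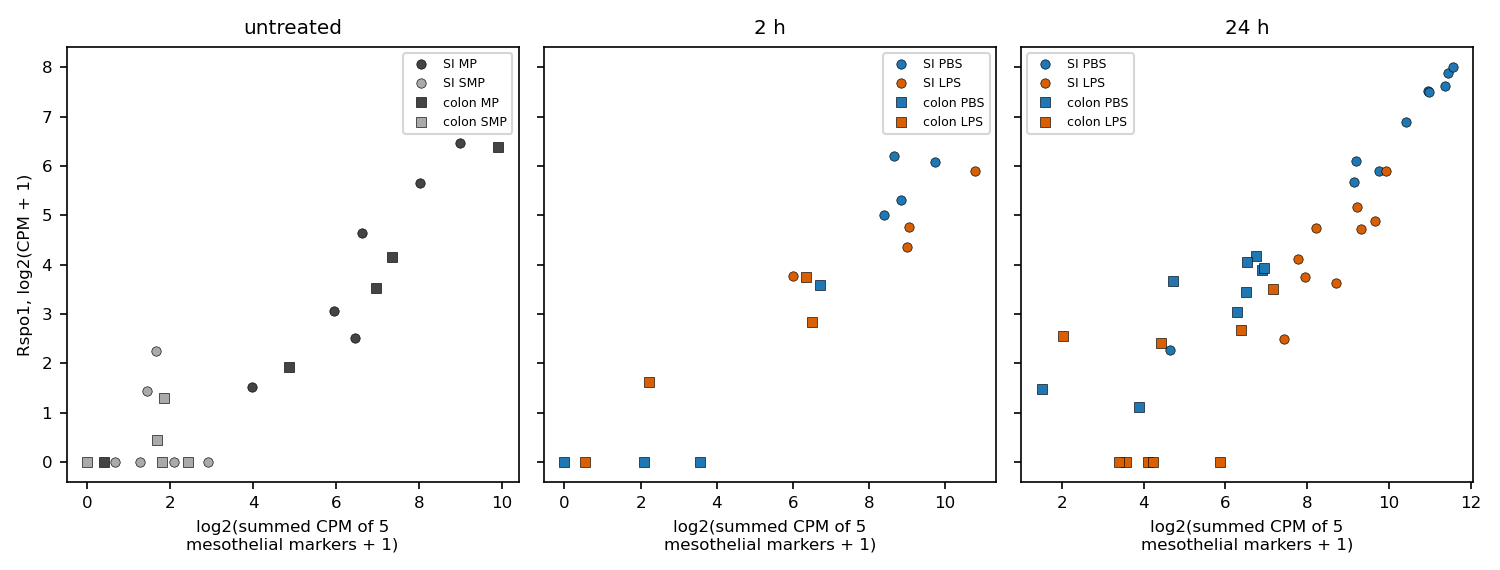
Rspo1 against the summed level of 5 mesothelial markers in each library, both as log2(CPM + 1), with 1 panel per experiment and symbols for region and treatment or plexus. Points rise together in all 3 panels, and the 5 colon LPS libraries at 0 Rspo1 in the 24 h panel are those of WT mice.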

How the data were processed

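RNA-seq libraries were made by Smart-seq2, which has no molecular identifiers, per the labels' protocols. The authors deposited raw read counts per gene symbol in 2 tables. Trim Galore 0.4.4, STAR 2.5.3, DESeq2 and GRCm38 are named in the submitters' processing notes, while the counter and its use of strand are not given in the sources used here. Genes were kept by filterByExpr (14090, 13107 and 14903 in the 3 experiments) and scaled by TMM. For each experiment 1 quasi-likelihood model over its groups was fitted (edgeR 4.0.16, R 4.3.3), with two-sided tests and Benjamini-Hochberg adjustment over all genes, and a call at an adjusted p under 0.05. SE was derived from the fold change and F. Where a group had no count, folds use a floor of 3 counts per library. The script was tested on simulated data. Plots used Python 3.11.15 and matplotlib 3.10.9 with a pseudocount of 1.

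The genes, lists and tests were chosen with earlier results of these data known. The naming rule took all 9 genes in each comparison and up to 3 called genes per pathway list, and genes that passed no test are partly given by counts alone. The 3 genes most like each were taken at an average log2 CPM of at least 3 (prior count 2). The main models hold no block. At 24 h the labels give 15 pairs of colon and SI libraries of 1 mouse (mean r of deviations 0.121), and mouse as a block was an alternative. Across 143 replicate pairs no 2 libraries were identical. Alternatives were RLE size factors, DESeq2 1.42.0, no filter, sex as a covariate, the compared groups alone, the replicate block, a mouse-number covariate, mice numbered 11 and above, leaving out mouse 3, and leaving out each library. The reporter's driver gene is not reported here.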

Additional observations from a re-analysis of the deposited data

Results flagged for a closer look

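In groups of 4 to 6 libraries, the gap of the highest or lowest library to the next, on the log2(CPM + 1) scale, was compared with Dixon's 95% critical value. Of 136 groups examined 14 had such a library. Groups with all libraries at 0 are among the 136 but cannot be marked. Chance gives about 1 in 20 groups of normally distributed values. That rate does not apply to counts near 0: in 4 of the 14 all other libraries were at 0, where any count stands apart. The scale was changed to a pseudocount of 1 after a first run on log2 CPM with a prior count had marked groups with no counts at all. Each is given as a value, and no cause was tested.

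Rspo1 was 11.0 CPM in PBS colon replicate 3 at 2 h and 0 in the other 3, and 1.78 CPM in KO PBS colon replicate 4 at 24 h against 13.8 to 16.9 CPM. Rspo2 was 23.1 CPM in PBS colon replicate 1 at 2 h and 0 in the others. At 24 h Rspo2 was 1.20 CPM in WT LPS colon replicate 2 against at most 0.227 CPM, and 1.28 CPM in WT LPS SI replicate 1 (mouse 3) against 7.48 to 7.95 CPM.

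Wnt2b stood high in 5 groups. It was 5.99 CPM in untreated SI MP replicate 6, 0.370 CPM in WT LPS SI replicate 4, 3.30 CPM in KO LPS SI replicate 5, 2.91 CPM in WT PBS colon replicate 1 and 5.26 CPM in KO PBS colon replicate 4, with the others at 0.735 CPM or less. Wnt4 was 2.17 CPM in KO LPS colon replicate 1 against 0, and 4.51 CPM in KO PBS colon replicate 4 against at most 0.357 CPM. KO PBS colon replicate 4 was thus the low library for Rspo1 and the high one for Wnt2b and Wnt4. Grem1 was 0.525 CPM in untreated colon MP replicate 5 against 14.9 to 33.8 CPM, and 41.0 CPM in LPS SI replicate 3 at 2 h against 173 to 206 CPM.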

How the results depend on the processing

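Of 146 counts of called genes under other settings, leaving out single libraries aside, 124 stayed within 1.5 times the reported count. Most comparisons had a reported count of 0, and a 0 that stayed at 0 is among the 124. None of 288 values of called genes changed direction. With the compared groups alone the counts were 1 (region, MP), 3 (plexus, SI), 2 (region, 24 h WT), 3 (LPS, WT SI), 0 (LPS, WT colon, where Rspo1 did not pass the filter) and 0 (genotype, LPS colon). DESeq2 gave 5 (plexus, colon), 1 (plexus by region), 1 (region, 2 h), 1 (region, 24 h KO), 2 (LPS, WT SI), 2 (LPS, KO SI) and 1 (genotype by LPS, colon). In mice numbered 11 and above they were 2 (region, 24 h WT), 1 (region, 24 h KO), 2 (LPS, WT SI), 2 (LPS, WT colon) and 1 (LPS, KO SI), and without mouse 3 the count was 2 (LPS, WT colon). Among mice numbered 11 and above, the WT LPS libraries were those of mice 13 and 16 alone. Apart from fewer libraries or genes in the fit, the cause was not tested.

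Library names in the untreated and 2 h sets carry a sex and a number that recur across regions and plexuses. No label says that these tags name an animal, so they served as the replicate block in an alternative only. Same-tagged pairs had a mean r of deviations of 0.0928 (untreated) and 0.0602 (2 h), the lowest -0.0965 and -0.0483. At 2 h the tags recur in the PBS and LPS groups, so same-tagged pairs there include libraries of different treatments. Same-mouse pairs at 24 h gave similar values (0.121, lowest -0.0443), so this measure does not settle the pairing. With the replicate block the counts were 1 (region, MP, where Rspo2 was lost at an adjusted p of 0.0794), 1 (plexus by region, Grem1), while Grem1 between colon plexuses passed (log2 2.14, adjusted p = 0.0102), and, with mouse as the block, 0 (region, 24 h WT).

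With each library left out in turn the counts ran from 1 to 4 (plexus, colon), 0 to 1 (plexus by region), 0 to 1 (region, 2 h), 0 to 1 (region, 24 h WT), 0 to 1 (region, 24 h KO), 1 to 2 (LPS, WT colon) and 0 to 1 (LPS, KO SI). Rspo1 between colon plexuses was lost without MP replicate 1, Rspo2 in SMP without colon replicate 2 or 6, and Sfrp1 between colon plexuses without MP or SMP replicate 4. Bmp4 between colon plexuses was lost without MP replicate 1, 2 or 4 or SMP replicate 5, and in SI in 9 of 12 runs. Rspo1 between regions in 24 h WT was lost without any 1 of the 4 colon libraries or SI replicate 1. Levels of Wnt2b, Wnt4 and Rspo2 lie near the limit of counting in many libraries.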
